A study of Sus scrofa with 2 samples.

Results

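RAB38, RAB32, RAB27A, MLPH, MYO5A, HPS1, HPS3, HPS4, HPS5 and LYST encode the small GTPases, the motor machinery and the complex subunits that fill melanosomes with their enzymes and carry them through the pigment cell. These 10 genes were looked up by gene symbol among 27622 features of a porcine expression table, and through the Ensembl pig name or the gene description where no symbol was given. Each of 9 genes matched 1 feature, and no feature carried the name MLPH, which is not analysed here. The samples are described as inner ear stria vascularis (SV), the epithelium in the lateral wall of the cochlea, from Rongchang pigs. By the methods of the study, cochlear lateral walls that hold the SV were dissected, so the RNA need not come from the SV alone. SV is used below as the name of these samples. The SV itself consists of marginal cells, basal cells and the intermediate cells, which are melanocytes. The study compared 1 library of the Mitf R/r genotype with 1 library of the Mitf r/r genotype, where r is an allele with a short duplication in the promoter of MITF-M, the melanocyte isoform of the transcription factor MITF. Mitf r/r pigs are albino and deaf. The Mitf R/r library served as the control, although this genotype also carries 1 copy of r, and a library without the r allele is not analysed here. The sample labels give the age as postnatal day 1, whereas the text of the study places these SVs before birth. The number of pigs behind each library is not given in the sources used here.

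Melanosomes are organelles related to lysosomes. RAB38 and the closely related RAB32 sit on the vesicles that deliver tyrosinase and its relatives to the maturing melanosome. They are activated by BLOC-3, the exchange factor made of HPS1 and HPS4, and they work together with BLOC-2, made of HPS3, HPS5 and HPS6. Once a melanosome is mature, RAB27A on its membrane binds melanophilin (MLPH), which recruits the actin motor myosin Va (MYO5A) and holds the organelle at the cell periphery. LYST is a large protein that limits the size of lysosomes and melanosomes, and its loss causes Chediak-Higashi syndrome. Loss of RAB27A, MLPH or MYO5A causes the forms of Griscelli syndrome, and loss of an HPS gene causes Hermansky-Pudlak syndrome. The HPS genes, LYST, RAB27A and MYO5A are also used in many cells without pigment.

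Expression was given as RPKM, the reads on a gene scaled to the length of the gene and to the mapped reads of the library. Working out the reads behind the RPKM values put the depth of the R/r library at 15829244 mapped reads and that of the r/r library at 14258672. All intervals are 95% intervals from these reads and cover counting error alone. Since each genotype has 1 library, there is no replicate check, no p-value can be given, and the genotype cannot be told apart from other differences between the animals or their dissections. The measure of change was the log2 ratio of RPKM, r/r over R/r, taken for 16331 genes, those above 0 in both SVs with at least 1 RPKM in one or both. The highest of 3 MITF features was at 51.7 RPKM in the R/r library and 37.8 RPKM in the r/r library. Where values are given as a pair, that of the R/r library comes first. Markers of the tissue were present in both SVs, with CLDN11 of basal cells at 840 and 706 RPKM and KCNE1 of marginal cells at 278 and 248 RPKM.

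RAB38 showed the largest difference of the 9 genes. It was at 15.5 RPKM in the R/r library (interval 13.9 to 17.3, from 338 reads) and at 0.357 RPKM in the r/r library (0.144 to 0.736, from 7 reads). At the level of the R/r library, 304 reads would have been found on RAB38 in the r/r library. The r/r library thus held 2.30% of the R/r level, a level 43.5-fold lower (20.9 to 109), and the log2 ratio was -5.44 (-6.77 to -4.38). Lower ratios were found for 5 of the 16331 genes. In a sample of whole tissue, fewer cells of a type and less RNA per cell cannot be told apart, and this holds for each of the values here.

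RAB32, which can take over much of the work of RAB38 in pigment cells and also serves mitochondria and lysosomes elsewhere, was lower by far less. Its level was 8.71 RPKM in the R/r library (7.73 to 9.77, 289 reads) and 5.35 RPKM in the r/r library (4.55 to 6.25, 160 reads). The intervals of the levels did not overlap, and the r/r level was 61.5% of the R/r level, a log2 ratio of -0.70 (-0.99 to -0.42). A lower ratio was found for 4.59% of all genes compared, and for 0.819% of the 8176 genes that had as many reads as RAB32 or more. The difference of the log2 ratios, RAB38 minus RAB32, was -4.74 (-6.10 to -3.63). RAB38 was thus the more abundant of the pair in the R/r library, at 1.78 times the level of RAB32, and the rarer in the r/r library, at 0.0667 times. Summed, the pair was at 24.2 RPKM in the R/r library, of which RAB38 made up 64.1%, and at 5.71 RPKM in the r/r library, of which RAB38 made up 6.25%.

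**Figure D1:**
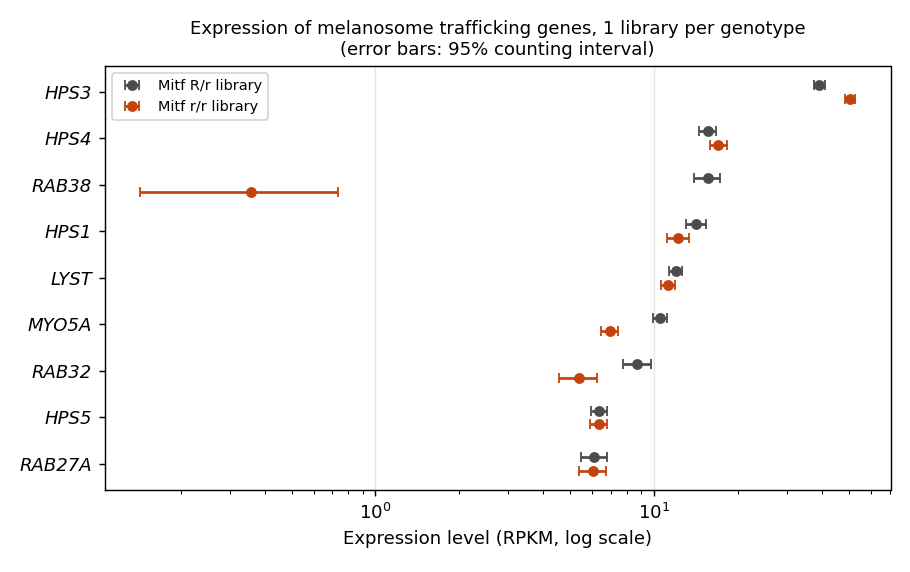
Expression level in RPKM on a log axis of the 9 melanosome trafficking genes with a matched feature, in the Mitf R/r library and the Mitf r/r library, in order of the R/r level; points are the deposited values and bars the 95% counting intervals. The points of RAB38 lie far apart at 15.5 and 0.357 RPKM, those of RAB32 and MYO5A are separated without overlap of their bars, and those of HPS5 and RAB27A nearly coincide.

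RAB27A, the GTPase of the step that ties the finished melanosome to actin, showed nearly the same level in the libraries. It was at 6.09 RPKM in the R/r library (5.47 to 6.76, 352 reads) and at 6.01 RPKM in the r/r library (5.36 to 6.72, 313 reads). The log2 ratio was -0.02 (-0.24 to 0.21), with 49.9% of all genes compared below it, so that RAB27A stood in the middle of the table. RAB27A and RAB38 had similar numbers of reads in the R/r library, at 352 and 338. In the r/r library they had 313 and 7 reads, and the 7 reads of RAB38 limit how closely the contrast is known. The difference of their log2 ratios, RAB38 minus RAB27A, was -5.42 (-6.77 to -4.33), and the level of RAB38 went from 2.55 times that of RAB27A in the R/r library to 0.0594 times in the r/r library.

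MYO5A, the motor that RAB27A recruits through MLPH and that also carries cargo in neurons and other cells, did not share the ratio of RAB27A. Its level was 10.5 RPKM in the R/r library (9.92 to 11.1, 1289 reads) and 6.92 RPKM in the r/r library (6.43 to 7.42, 766 reads). This was 66.0% of the R/r level, a log2 ratio of -0.60 (-0.73 to -0.47), and 1.17% of the 2900 genes of equal or greater depth had a lower one. The difference from RAB27A, MYO5A minus RAB27A, was -0.58 (-0.84 to -0.32). That from RAB32, RAB32 minus MYO5A, was -0.10 (-0.42 to 0.21), so that RAB32 and MYO5A could not be separated at this depth. MYO5A and RAB32 were both far from RAB38, and the log2 ratio of RAB38 was lower than that of MYO5A by 4.84 (difference -4.84, interval -6.17 to -3.77).

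The subunits of BLOC-3 had small and opposite ratios. HPS1 was at 14.1 RPKM in the R/r library (13.0 to 15.3) and at 12.2 RPKM in the r/r library (11.1 to 13.3), a log2 ratio of -0.21 (-0.39 to -0.04). HPS4 was at 15.6 RPKM (14.5 to 16.7) and at 17.0 RPKM (15.8 to 18.2), a log2 ratio of 0.12 (-0.02 to 0.27), whose interval spans 0. The proteins act as a pair, and the RNA levels of HPS1 over HPS4 were 0.907 in the R/r library against 0.718 in the r/r library, a difference of the log2 ratios of -0.34 (-0.57 to -0.11). Their summed level was nearly the same, at 29.7 RPKM and 29.1 RPKM. The exchange factor of RAB38 and RAB32 was thus present at the RNA level in both SVs, while the level of RAB38 was near 0 in the r/r library.

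Of the BLOC-2 subunits, HPS3 had the highest level of the group in both SVs and was the 1 member with an interval above 0. It was at 39.1 RPKM in the R/r library (37.4 to 40.9, 1887 reads) and at 50.3 RPKM in the r/r library (48.2 to 52.4, 2183 reads), 1.28-fold higher with a log2 ratio of 0.36 (0.27 to 0.45). A higher ratio was found for 3.45% of the 1277 genes of equal or greater depth. HPS5, its partner in the complex, was at 6.32 RPKM (5.91 to 6.75) and at 6.31 RPKM (5.88 to 6.77), a log2 ratio of -0.00 (-0.14 to 0.14). HPS6, the remaining subunit, is not among the 10 genes and was at 5.09 and 3.68 RPKM from 206 and 134 reads, a log2 ratio of -0.47 (-0.79 to -0.15). The subunits of BLOC-2 therefore had a higher, a nearly equal and a lower level in the r/r library.

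LYST was at 12.0 RPKM in the R/r library (11.3 to 12.6, 1410 reads) and at 11.2 RPKM in the r/r library (10.6 to 11.9, 1191 reads). Its log2 ratio of -0.09 (-0.21 to 0.02) was the median of the 9 members. Without RAB38 the other 8 genes had a median of -0.06 and ranged from -0.70 for RAB32 to 0.36 for HPS3, and the 4 HPS genes ranged from -0.21 to 0.36. The median of all genes compared was -0.02, with the 5th and the 95th percentile at -0.67 and 0.54.

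Counted over the group, 1 of 9 members, RAB38, was lower in the r/r library by 2-fold or more, against 2.20% of all genes compared, and 0 were at least 2-fold higher, against 1.78%. An interval wholly below 0 was found in 4 members (RAB38, RAB32, MYO5A and HPS1), against 14.5% of all genes compared, and wholly above 0 in 1 member (HPS3), against 11.2%. The intervals of RAB27A, HPS4, HPS5 and LYST spanned 0. Over both libraries the members had from 345 reads (RAB38) to 4070 reads (HPS3), against a median of 449 reads for all genes compared, and the intervals narrow as reads increase.

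**Figure D2:**
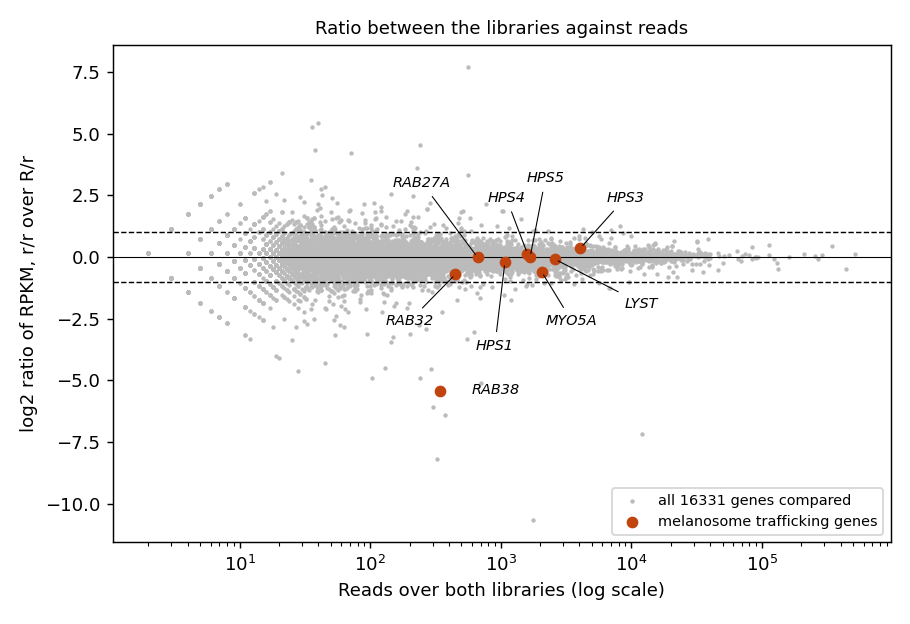
Log2 ratio of RPKM, r/r over R/r, against the reads over both libraries on a log axis, for all 16331 genes compared (grey points) and the melanosome trafficking genes (orange points); dashed lines mark 2-fold. RAB38 lies at -5.44, far below the body of genes with like reads, RAB32 and MYO5A lie at the lower edge of the body, and the other members lie inside it except HPS3, at the upper edge.

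Against every other member, the ratio of RAB38 was lower by more than counting error. The difference of log2 ratios was smallest against RAB32 and MYO5A, given above, and was -5.23 (-6.57 to -4.15) against HPS1 and -5.35 (-6.68 to -4.28) against LYST. It was -5.44 (-6.77 to -4.37) against HPS5 and -5.57 (-6.90 to -4.49) against HPS4. The difference was widest against HPS3, at -5.80 (-7.13 to -4.74). The intervals are wide because all of these differences share the 7 reads of RAB38 in the r/r library.

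The order of the levels changed between the SVs through RAB38, which came last in the r/r library, and through RAB32, which passed below HPS5 and RAB27A. In the R/r library the order of RPKM was HPS3, HPS4, RAB38, HPS1, LYST, MYO5A, RAB32, HPS5 and RAB27A. The neighbours HPS4 and RAB38 (interval of the ratio of levels 0.882 to 1.14), RAB38 and HPS1 (1.10, 0.960 to 1.26) and HPS5 and RAB27A (1.04, 0.916 to 1.18) did not differ beyond counting error. By level per length, RAB38 could thus not be separated from either subunit of its exchange factor. In the r/r library the order was HPS3, HPS4, HPS1, LYST, MYO5A, HPS5, RAB27A, RAB32 and RAB38, where HPS1 and LYST, and each gene from MYO5A to RAB32 and the next, did not differ beyond counting error. RAB32 was at 15.0 times the level of RAB38 (7.11 to 37.9). Summed over the 9 members the level was 128 RPKM in the R/r library and 116 RPKM in the r/r library.

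RAB38 also had the lowest log2 ratio among the Rab family genes compared, the GTPases that mark the compartments of the secretory and endocytic routes. The table held 53 genes with a Rab symbol, and 47 were compared. Their median log2 ratio was -0.00, with an interval below 0 in 7, above 0 in 7 and spanning 0 in 33. Over all genes compared, the interval lay below 0 in 14.5% and above 0 in 11.2%. At least 2-fold lower were RAB38, RAB37 and RAB30, against 2.20% of all genes compared, and at least 2-fold higher was RAB27B, against 1.78%. RAB37, a Rab of secretory granules, was at 2.09 and 0.650 RPKM from 25 and 7 reads, a log2 ratio of -1.69 (-3.14 to -0.44). RAB30, a Rab of the Golgi, was at 3.56 and 1.47 RPKM from 35 and 13 reads, a log2 ratio of -1.28 (-2.32 to -0.32). Both have few reads, and their intervals reach to within 2-fold, whereas that of RAB38 does not. RAB32 was next in the order. The Rab gene with the highest level, RAB1A of the transport from the endoplasmic reticulum to the Golgi, was at 163 and 169 RPKM.

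**Figure D3:**
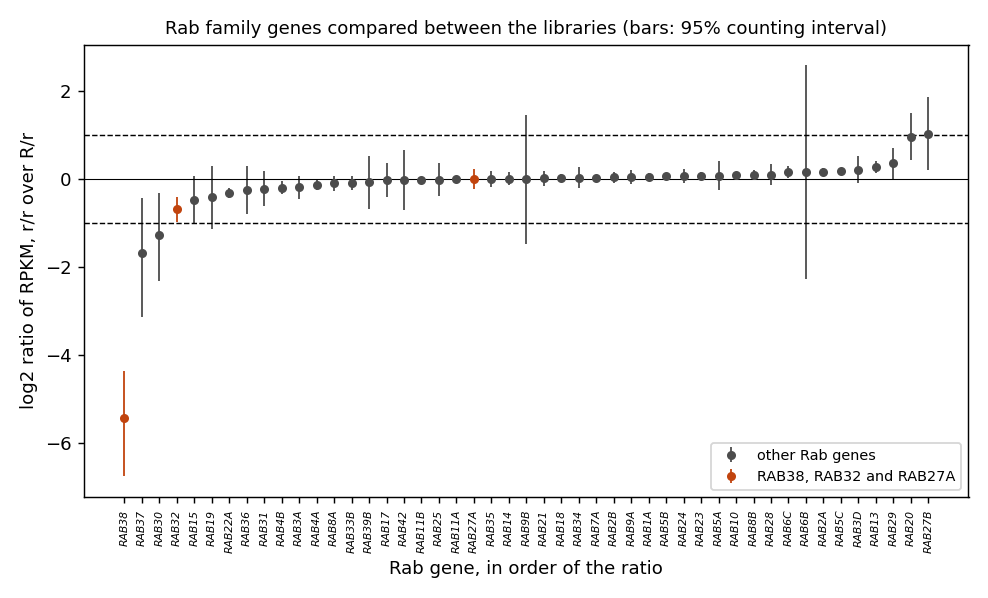
Log2 ratio of RPKM, r/r over R/r, of the 47 Rab genes compared, in order of the ratio, with 95% counting intervals as bars; dashed lines mark 2-fold, and RAB38, RAB32 and RAB27A are in orange. RAB38 at -5.44 is the 1 gene whose whole interval lies beyond 2-fold, RAB32 at -0.70 is the fourth from the left, and RAB27A lies near 0.

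The upper end of the Rab family held RAB27B, the close relative of RAB27A that serves secretion in many cells. It was at 1.35 RPKM in the R/r library and 2.70 RPKM in the r/r library from 21 and 38 reads, a log2 ratio of 1.01 (0.20 to 1.85). RAB20 (2.20 and 4.26 RPKM, log2 ratio 0.95, interval 0.43 to 1.48) and RAB29, a relative of RAB32 and RAB38 (2.85 and 3.62 RPKM, log2 ratio 0.34), followed. Summed, RAB27A and RAB27B were at 7.44 RPKM in the R/r library and 8.72 RPKM in the r/r library, of which RAB27A made up 81.9% and 69.0%. The higher level of RAB27B rests on few reads and left RAB27A the more abundant of the pair in both SVs.

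The genes around the members in the pathway mostly had ratios near 0, as did most genes of the table. Of all genes compared, 2.20% were at least 2-fold lower and 1.78% at least 2-fold higher. Their interval lay below 0 in 14.5% and above 0 in 11.2%. These shares stand beside the counts of each list below, and a short list without a gene 2-fold apart is not set off by this. Of 25 genes listed for the cargo sorting complexes (HPS6, BLOC-1, AP-1, AP-3 and their partners), 20 were compared, and none was at least 2-fold apart. An interval below 0 was found in 2 of them (HPS6, the lowest, and AP1M1, at -0.16) and above 0 in 1 (AP1G1, at 0.08), with a median of 0.04. The highest ratio was that of BLOC1S2, at 0.21, and the highest level that of SNAPIN, a BLOC-1 subunit, at 68.1 and 73.4 RPKM. Of 7 regulators and relatives of RAB32 and RAB38 that were compared, none was 2-fold apart, and the median was 0.02. Among these, SGSM2, a GTPase activating protein that turns RAB32 and RAB38 off, had the lowest ratio, at -0.22 (-0.42 to -0.02), and RAB29 the highest, while ANKRD27 (VARP), an effector that binds both GTPases, was at 13.0 and 12.9 RPKM. The highest level was that of RAB7A of late endosomes, at 155 and 157 RPKM.

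Of 16 regulators and effectors of RAB27A, 11 were compared, with RAB27B at least 2-fold higher, none lower, and a median of -0.16. Intervals lay below 0 for UNC13D and SYTL2 and above 0 for RAB27B and CHM. UNC13D (Munc13-4), the effector that primes secretory lysosomes in blood cells, had the lowest ratio of the list, at 4.67 and 2.74 RPKM from 263 and 139 reads, -0.77 (-1.08 to -0.47). SYTL2, a synaptotagmin-like effector that docks melanosomes at the plasma membrane, was at 12.0 and 9.44 RPKM, a log2 ratio of -0.35 (-0.50 to -0.20). CHM, the escort protein that delivers Rab proteins for lipid attachment, was at 25.2 and 28.6 RPKM (0.18, 0.03 to 0.34), and RABGGTB, a subunit of the enzyme that attaches the lipid, had the highest level in the R/r library, at 26.0 and 26.4 RPKM.

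Of 9 myosins and other genes of melanosome position, all were compared and none was 2-fold apart, with a median of -0.01. MYO7A, which positions melanosomes in the pigment epithelium of the retina, had the lowest ratio, at 1.46 and 0.902 RPKM from 151 and 84 reads, -0.70 (-1.10 to -0.30). MYO5C, a relative of MYO5A found in epithelia and its direct neighbour on the chromosome, was at 2.26 and 1.60 RPKM from 187 and 119 reads (-0.50, -0.85 to -0.16), and MYO5B had the highest ratio, at 0.15. An interval above 0 was found for the light chain gene DYNLL1, which had the highest level of the list at 226 and 243 RPKM (0.10, 0.02 to 0.18). Its relative DYNLL2 was at 142 and 145 RPKM (0.03, -0.07 to 0.12). The relatives of LYST with a BEACH domain (7 compared, none 2-fold apart, median -0.14) ranged from -0.67 for WDFY4, at 1.14 and 0.717 RPKM, to 0.32 for NBEAL1. Of these, WDFY4, WDFY3 and NSMAF had an interval below 0 and NBEAL1 above 0, and WDFY3 had the highest level, at 23.2 and 19.3 RPKM.

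The genes whose ratio was most like that of RAB38 were searched among 8346 genes at 10 RPKM or more in the R/r library and not at 0 in the r/r library, by the distance of the log2 ratios over these libraries. Among the nearest 5 were SLC45A2, PMEL, TYR and KCNJ13, at distances from 0.333 to 0.950. SLC45A2, a transporter of the melanosome membrane, was at 27.1 and 0.785 RPKM from 690 and 18 reads, a log2 ratio of -5.11. PMEL, which forms the fibrils of the early melanosome, was at 15.5 and 0.513 RPKM, and TYR (tyrosinase), the first enzyme of melanin synthesis, at 11.8 and 0.176 RPKM. KCNJ13, a potassium channel, was at 11.8 and 0.140 RPKM. The search admitted only genes at 10 RPKM or more in the R/r library, so no likeness of level there can be read from it. Within that limit, these 4 genes lay between 11.8 and 27.1 RPKM in the R/r library, with RAB38 at 15.5 RPKM.

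TYR is also a neighbour of RAB38 on pig chromosome 9, by the order of genes in the RefSeq annotation of Sscrofa11.1, a later assembly than that of the table. Of the 4 protein-coding genes on each side of RAB38, 6 were matched. CTSC, directly beside RAB38, was at 29.8 and 21.9 RPKM, a log2 ratio of -0.45 (-0.60 to -0.30). FZD4 was at 27.1 and 26.6 RPKM, TMEM135 at 13.3 and 14.7 RPKM, and NOX4, which follows TYR, at 11.9 and 12.8 RPKM. GRM5, between CTSC and TYR, was near 0 in both SVs, at 0.219 and 0.194 RPKM. Of these matched neighbours, TYR was the 1 compared that was lower by 2-fold or more, and CTSC was lower by less than 2-fold. Over the neighbours of the 9 matched members, 46 were compared, with a median of -0.04. Of these, TYR was the 1 gene at least 2-fold lower and 0 were higher, against 2.20% and 1.78% of all genes compared. The counts of neighbours are thus near the shares over all genes.

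**Figure D4:**
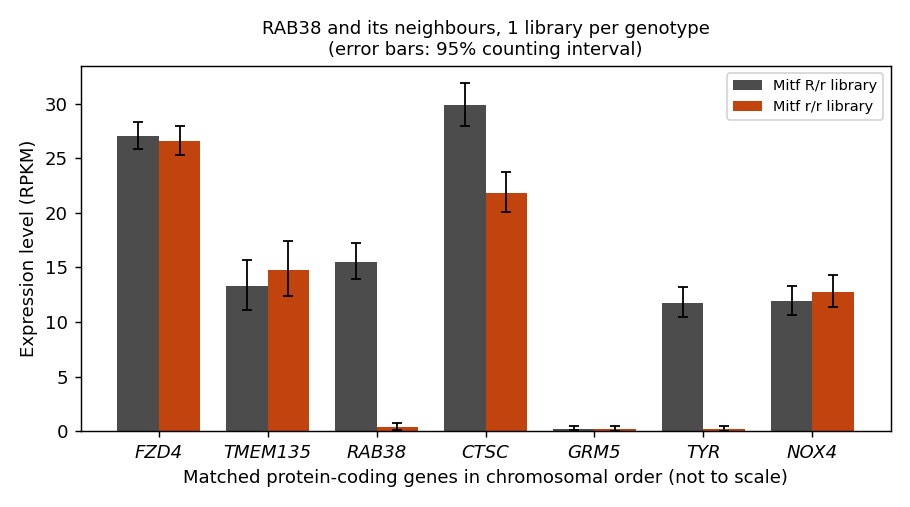
Expression level in RPKM of RAB38 and the 6 matched genes among its 4 neighbours on each side, in chromosomal order and not to scale, in the Mitf R/r library and the Mitf r/r library; error bars are 95% counting intervals. RAB38 and TYR are near 0 in the r/r library, CTSC between them is at 29.8 and 21.9 RPKM, and the other neighbours have like bars.

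Markers of other cell types in the lateral wall also differed between the libraries. Of 16 markers of melanocytes and intermediate cells, 14 matched and 12 were compared. Of these, 8 were at least 2-fold lower, against 2.20% of all genes compared, and 0 were higher, against 1.78%. Their median log2 ratio was -4.13. The list was chosen with earlier results of these data known. TRPM1, DCT, KCNJ13, TYR, SLC45A2, PMEL and EDNRB are also among the genes that the study called different between these libraries. The count is therefore no independent result. GPNMB and KCNJ10 were not matched under these names. The summed level of the matched markers was 364 RPKM in the R/r library, of which DCT made up 171 RPKM. In the r/r library it was 66.7 RPKM, of which KIT made up 44.2 RPKM. TYRP1 was at 0.0340 and 0.0377 RPKM, from 1 read in each library. MLANA was at 12.0 and 0 RPKM. Its recovered reads of 4 and 0 are the smallest that fit, on a length of 21 bases, and the true reads may be a multiple. Whether the 0 lies within counting error can therefore not be told. In 9 of these 12 markers the interval lay below 0, against 14.5% of all genes compared. Their log2 ratios ran from -10.6 for TRPM1 to -0.94 for SLC24A5. RAB38 lay below the median of the markers, and RAB27A lay with KIT (43.6 and 44.2 RPKM, log2 ratio 0.02) near 0. The intervals of SOX10 (-0.21, -0.58 to 0.16) and OCA2 (0.04, -0.78 to 0.87, from 28 and 26 reads) also spanned 0. Beside the lower levels of RAB32 and MYO5A, all 5 bone markers were lower as well, 2 of them at least 2-fold, against 2.20% of all genes compared. Their median was -0.71 and their summed levels were 550 and 331 RPKM. The 4 marginal cell markers compared had a median of -0.31 (summed levels 1210 and 783 RPKM), with an interval below 0 in 3. Most of that sum was ATP1B2, at 915 and 522 RPKM, and the interval of HMX2 spanned 0 (-0.03, -0.52 to 0.46). The 3 basal cell and fibrocyte markers compared had a median of -0.25 (7703 and 5661 RPKM), with an interval below 0 in 2. Most of that sum was COCH, at 6826 and 4914 RPKM, whereas CRYM was higher in the r/r library (0.21, 0.07 to 0.35).

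RAB32, RAB27A, HPS genes and LYST are also used in cells of the blood lineage. The summed level of 10 macrophage markers was 80.3 and 74.5 RPKM (median of 9 compared, -0.12). That of 6 osteoclast markers was 221 and 199 RPKM, mostly from CTSK (141 and 138 RPKM) and MMP9 (71.4 and 49.7 RPKM). OCSTAMP was at 0 in both SVs, and DCSTAMP had 1 and 2 reads. The 4 osteoclast markers compared had a median of 0.15, from -0.52 for MMP9 to 0.54 (0.32 to 0.78) for CALCR. The 3 matched platelet markers summed to 4.72 and 2.83 RPKM, with PF4 at 0 in both SVs, and ITGA2B, the 1 compared, had a log2 ratio of -0.98. The 6 matched lymphocyte markers summed to 0.419 and 0.438 RPKM, with GZMB at 0 in both SVs. The part of the mixture of cells in the ratios of RAB38, RAB32 and MYO5A was not tested.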

How the data were processed

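RNA of cochlear lateral walls with the SV was sequenced in 1 Mitf R/r and 1 Mitf r/r library. The authors aligned the reads to Sscrofa10.2 with TopHat2 (2.0.7, per the submitters' processing notes) and deposited 1 table of RPKM values for 27622 features. The counting program and annotation are not given in the sources used here. RPKM was used as deposited, without a pseudocount. The table names 16376 features, Ensembl names or descriptions gave 1934 more, and 9312 stayed unnamed. Among features of the same symbol, that of highest mean RPKM was taken. Another 2 columns, without headings, hold the authors' own comparisons and were not used.

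Low RPKM values are whole multiples of the value of 1 read, which gave library totals (89.4% and 89.3% of them on features) and reads for 100% of 20862 features above 0, each within 0.05 of a whole read. A read on 1 kb is worth 0.0632 and 0.0701 RPKM. The reads are the smallest whole numbers fitting both RPKM values, so the true reads may be a multiple. Recovered lengths of 10 of 13 mitochondrial genes were within 2 bases of RefSeq. Intervals are 95% exact: Poisson for a level, Clopper-Pearson for a ratio of libraries, and the conditional odds ratio for a difference between genes. They treat reads as independent molecules, which pairs of mates and PCR copies are not. The steps were tested on simulated data.

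The members and the lists of genes were chosen with earlier results of these data known. The genes named are the members, the 5 genes of at least 10 RPKM in the R/r library with the ratio nearest to RAB38, and in each list those at least 2-fold apart, with the highest level, or with the lowest or highest ratios (3 each in the Rab family). Genes with an interval apart from 0, VARP, the neighbours and the markers were named after their values were seen. Results for some genes and for 1 marker list are not reported here. Alternatives were pseudocounts, minimum RPKM values, scalings, summed features and thresholds. Neither a promoter nor a protein sequence was used here. Statistics used scipy (1.17.1) and numpy (2.4.6) under Python (3.11.15), tables pandas (2.3.3) and figures matplotlib (3.10.9).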

Additional observations from a re-analysis of the deposited data

How the results depend on the processing

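The log2 ratio of RAB38 lay between -5.48 and -5.10 with a pseudocount of 0.1 RPKM, no minimum or a minimum of 5 or 10 RPKM, scaling by the median, the upper quartile or to TPM, or summed features. With a pseudocount of 1 RPKM it was -3.61, and the difference RAB38 minus RAB27A was -3.59, since the added value exceeds the r/r level of RAB38. That difference has no value at a minimum of 10 RPKM, which removes RAB27A. With a threshold of 1.5-fold, 3 members (RAB38, RAB32 and MYO5A) were lower in place of 1. At 4-fold, and with the whole interval beyond 2-fold, a choice made after seeing the data, the count was 1. The median of the members lay between -0.15 and -0.07. Of 69 values of the other members under these alternatives, 0 moved beyond their interval and 0 changed sign as a called value. No paired analysis was possible because each genotype has 1 library. The limits are the lack of replicates, the 7 reads on RAB38 in the r/r library, the mixture of cells in the tissue, and the annotation of an early assembly, in which no feature was named MLPH.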
